A study of Mus musculus with 21 samples.

Results

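The 9 genes described here form the resting, or homeostatic, equipment of astrocytes, the glial cells that surround synapses and blood vessels in the brain. They are Slc1a2 and Slc1a3 (glutamate uptake), Glul (glutamine synthesis), Aqp4 (water channel), Gja1 and Gjb6 (gap junctions), Aldh1l1, Aldoc and Sox9 (enzymes and a transcription factor by which the cell type is recognised). They were chosen by symbol and made up 9 of the 48474 rows of the count table. All 9 were among the 18248 genes that passed the filter on low counts and were tested, and none had a second row under its symbol.

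Gene expression was measured by bulk RNAseq in 21 mice. The labels give the tissue as neocortex and the study's methods as brain cortex, whereas the study's text on a heat map names hippocampus for rNLS8 data, and the label is followed here. The 10 rNLS8 mice, labelled TG, carry NEFH-tTA together with tetO-hTDP-43ΔNLS, so that human TDP-43 without its nuclear localisation signal is made mainly in neurons, under the neurofilament heavy chain promoter, once doxycycline is withdrawn. The 11 mice labelled WT, called wild-type below, were littermates described as monogenic in the series' text, which does not say which transgene each carried. Every mouse, of either genotype, had received 350 µg of a control antisense oligonucleotide without a target, in 10 µL into a cerebral ventricle, at 17 to 19 weeks of age. Every mouse was fed doxycycline at 200 mg/kg of diet up to 2 weeks after that injection, and tissue was taken 3 weeks after the diet was changed. Batch A held 4 wild-type and 3 rNLS8 mice and batch B held 7 of each, and the labels describe the batches as independent cohorts.

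Astrocytes clear glutamate from the synaptic cleft, convert it to glutamine and hand it back to neurons. Their endfeet on blood vessels carry water and potassium channels, and gap junctions join the cells into a network. After injury or in neurodegeneration astrocytes become reactive and raise intermediate filament genes such as Gfap, and the homeostatic genes are often followed as the other side of that change. In these mice the transgene is driven in neurons, so the comparison concerns astrocytes beside affected neurons.

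Libraries held between 20700912 and 22263809 counts. Of all counts, wild-type mice had 0.708% ± 0.0448 (SD, n = 11) on the 9 genes and rNLS8 mice 0.641% ± 0.0416 (SD, n = 10), with ranges of 0.648 to 0.784% and 0.597 to 0.725%. The labels were checked against Tardbp, the mouse gene for TDP-43. The table also holds another row under that symbol, which was kept apart. Tardbp had between 2253 and 2827 normalized counts in wild-type mice, between 2363 and 3091 in the rNLS8 mice of batch A and between 4405 and 5053 in those of batch B. The library T61340, labelled TG and of batch A, had the 2363 and lay inside the wild-type range, so the fits of the 9 genes and the list counts are also given without it. Markers of neocortex were detected (all 9 of that list passed the filter), and markers of other regions were detected in part (7 of 11). The latter list summed to 55.2 to 265 CPM (counts scaled to the effective library size) in wild-type mice. In rNLS8 mice it summed to 59.3 to 243 CPM. Of its 7 genes tested, Drd1 was lower (log2 fold change of -0.66, adjusted p = 0.0362, edgeR's quasi-likelihood test). The other 6 did not pass 0.05, and none of the 7 did without T61340 or with scaling by library total alone. Whether the tissue piece differed between mice or genotypes was not tested.

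Of the 9 genes, 6 were lower in rNLS8 mice, none was higher and 3 did not pass the threshold of an adjusted p of 0.05 in edgeR's quasi-likelihood test with batch as covariate. Over all genes tested, 44.7% passed, with 21.7% of all genes lower and 23.0% higher. The median log2 fold change of the 9 genes was -0.18, beside 0.00 over all genes. These counts are with TMM scaling. With libraries scaled by their total alone, 3 of the 9 were lower (Slc1a2, Gja1 and Glul), Gjb6 was higher and the median was -0.10, beside 0.08 over all genes. Of the 18248 genes tested, 8584 then passed in either direction (2752 lower and 5832 higher), a larger share than among the 9. Differences were modest, and the 6 genes fell by 9.70% (Slc1a3) to 19.6% (Slc1a2) in the fit. In whole tissue, fewer astrocytes and less RNA per astrocyte cannot be told apart. The same 6 genes fell without T61340, where 45.6% of all genes passed and 22.4% were lower. For none of the 9 genes were the genotypes separate over all 21 mice, which was the case for 7.65% of the genes tested.

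**Figure D1:**
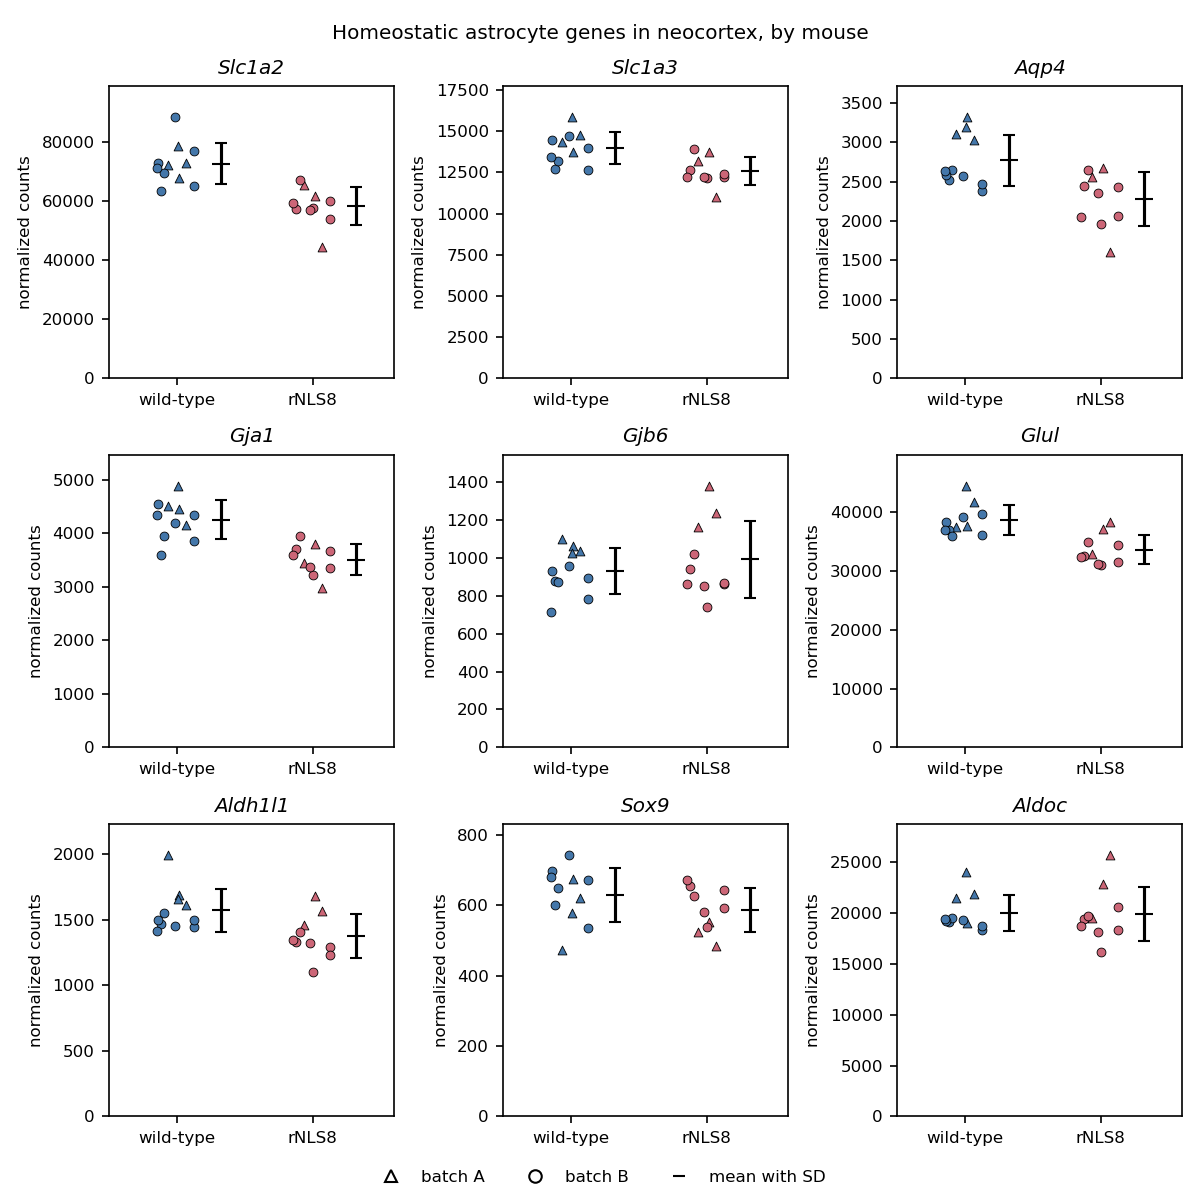
Normalized counts (vertical axes, from 0) of the 9 genes in each mouse, with triangles for batch A, circles for batch B and bars for the mean with SD of 11 wild-type (blue) and 10 rNLS8 mice (red). Slc1a2 was below the lowest wild-type mouse in 8 of 10 rNLS8 mice, whereas the rNLS8 range of Aldoc enclosed the wild-type range.

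Slc1a2 encodes the main glutamate transporter of forebrain astrocytes and was the most abundant of the 9 transcripts in counts. The gene lies on the plus strand at chr2:102658659-102790784 (GRCm38). Normalized counts were 63235 at the lowest, 72248 at the median and 88252 at the highest in wild-type mice, and 44367, 58356 and 67170 in rNLS8 mice. The ranges overlapped only between the 2 lowest wild-type and the 2 highest rNLS8 mice, and the other 8 rNLS8 values lay under the wild-type range. Means were 72543 ± 6933 (SD, n = 11) and 58343 ± 6322 (SD, n = 10), or -0.32 on the log2 scale (standard error, SE, of 0.064, adjusted p = 0.000266, edgeR's quasi-likelihood test). T61340 was the lowest of all mice, and leaving it out gave -0.27 (adjusted p = 0.000274, same edgeR test).

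Slc1a3, the other glutamate transporter of astrocytes and more prominent in cerebellum and in radial glia, is on the minus strand at chr15:8634124-8710764. Its normalized counts lay between 12668 and 15843 (median 13992) in the wild-type group and between 11022 and 13949 (median 12335) in the rNLS8 group. Of the rNLS8 mice, 7 were below the lowest wild-type mouse and the other 3 lay within the wild-type range. In the fit this was -0.15 on the log2 scale (SE of 0.045, adjusted p = 0.00972, edgeR's quasi-likelihood test) between means of 13985 ± 972 (SD, n = 11) and 12583 ± 859 (SD, n = 10). Without T61340 it was -0.12, with an adjusted p of 0.0180 in the edgeR test. It was -0.07 (adjusted p = 0.222, edgeR) when libraries were scaled by their total alone.

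The ratio of the transporters differed as well. The log2 ratio of Slc1a2 to Slc1a3 counts, which does not depend on how libraries are scaled, ran from 2.30 to 2.58 in wild-type mice, with a mean of 2.37 ± 0.086 (SD, n = 11). In rNLS8 mice it ran from 2.01 to 2.30, with a mean of 2.21 ± 0.089 (SD, n = 10). The ratio was below the lowest wild-type mouse in 9 of 10 rNLS8 mice (8 of 9 without T61340, which had the 2.01), and T61342 of batch A lay within the wild-type range. No test is given for the ratios, because the gene pairs were chosen with values known.

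Glul encodes glutamine synthetase, the enzyme that turns the glutamate taken up into glutamine, and lies on the plus strand at chr1:153899944-153909723. Normalized counts ran from 35927 over a median of 37702 to 44363 in wild-type mice and from 31044 over 32706 to 38368 in rNLS8 mice. In rNLS8 mice 8 of 10 values lay under the wild-type range, and the highest were T61340 and T60303, both of batch A. On the log2 scale the difference was -0.19 (SE of 0.040, adjusted p = 0.000385, edgeR's quasi-likelihood test) and -0.21 without T61340 (adjusted p = 0.000160, same test). Means were 38572 ± 2553 (SD, n = 11) and 33608 ± 2516 (SD, n = 10).

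The other 15 genes listed for the glutamate and glutamine cycle were split, with 5 higher, 5 lower and 5 not past the threshold, and a median log2 fold change of -0.10 (4 higher, 5 lower and -0.07 without T61340, and 5 higher, 4 lower and -0.02 with scaling by total alone). Slc1a4, a neutral amino acid transporter that carries serine, was higher by 0.84 (adjusted p = 7.79e-13), and Slc1a6, a glutamate transporter of Purkinje cells, by 0.47 (adjusted p = 6.70e-05, both edgeR's quasi-likelihood test). Slc17a6, a vesicular glutamate transporter of neurons, was lower with a log2 fold change of -0.74 (adjusted p = 0.000719 in that test). The neuronal glutamate transporter Slc1a1, which also has a second row in the table, fell by 0.17 on the log2 scale (adjusted p = 0.0210, edgeR). Got2, a mitochondrial aminotransferase, was among the 5 higher genes with 0.20 (adjusted p = 0.0216, edgeR), and its adjusted p without T61340 was 0.0577.

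Aqp4, the water channel of astrocyte endfeet, is on the minus strand at chr18:15389496-15410982. Wild-type mice had 2385 normalized counts at the lowest, 2634 at the median and 3316 at the highest, and rNLS8 mice 1611, 2389 and 2672. Batch A stood out among wild-type mice, whose 4 values there (3023 to 3316) were above all 7 of batch B (2385 to 2647), and 5 of 10 rNLS8 mice were below the lowest of them. This came to -0.26 on the log2 scale (SE of 0.074, adjusted p = 0.00575, edgeR's quasi-likelihood test) between 2769 ± 325 (SD, n = 11) and 2279 ± 344 (SD, n = 10). T61340 was the lowest mouse, and leaving it out gave -0.19 (adjusted p = 0.00238, same test). With scaling by total alone over all mice it was -0.18 (adjusted p = 0.0527, edgeR).

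Among 15 other genes of the perivascular endfoot, 8 were lower, 1 was higher and 6 did not pass, with a median log2 fold change of -0.16 (3 lower, 1 higher and -0.08 when libraries were scaled by their total alone). Without T61340, 8 were lower, none was higher and the median was -0.15. The sodium pump subunit Atp1b2 fell by 0.28 on the log2 scale (adjusted p = 3.56e-05, edgeR's quasi-likelihood test). The potassium channel Kcnj10 fell by 0.16 (adjusted p = 0.0203) and the membrane protein gene Mlc1 by 0.14 (adjusted p = 0.0193, both edgeR). Dystroglycan (Dag1, -0.20, adjusted p = 0.00414) and dystrobrevin (Dtna, -0.28, adjusted p = 2.49e-05), parts of the complex that holds Aqp4 at endfeet, were lower in the edgeR test. Of 7 other aquaporins 3 were tested (Aqp1, Aqp9 and Aqp11) and none of the 3 passed, with or without T61340.

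Gja1 and Gjb6 encode the connexins from which astrocytes build their gap junctions. Gja1 is on the plus strand at chr10:56377330-56402513 and Gjb6 on the minus strand at chr14:57123303-57133611. Gja1 had between 3590 and 4878 normalized counts in wild-type mice with a median of 4341, and between 2973 and 3955 in rNLS8 mice with a median of 3521. In rNLS8 mice 5 values were under the wild-type range, and the lowest was T61340. Its log2 difference was -0.27 (SE of 0.054, adjusted p = 0.000201, edgeR's quasi-likelihood test), from 4254 ± 361 (SD, n = 11) to 3509 ± 293 (SD, n = 10), and -0.24 without T61340 (adjusted p = 0.000301, same test).

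Gjb6 did not pass the threshold and its fitted difference had the opposite sign. Its normalized counts were 713, 928 and 1100 at the lowest, median and highest in wild-type mice and 739, 902 and 1376 in rNLS8 mice. The 3 rNLS8 mice above the wild-type range were those of batch A, and the medians of the genotypes were close. The log2 fold change was 0.10 with a 95% interval from -0.02 to 0.22 (adjusted p = 0.157, edgeR's quasi-likelihood test), and 0.10 without T61340 (adjusted p = 0.206). With scaling by total alone it passed as higher (0.18, adjusted p = 0.0165, edgeR). Means were 931 ± 120 (SD, n = 11) and 991 ± 204 (SD, n = 10).

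The log2 ratio of Gja1 to Gjb6 reached 2.60 in wild-type mice, around a mean of 2.20 ± 0.18 (SD, n = 11). In rNLS8 mice it ran from 1.26 to 2.12, around a mean of 1.84 ± 0.30 (SD, n = 10). It lay under the wild-type range in 7 of 10 rNLS8 mice (6 of 9 without T61340, which had the 1.26), and the 3 lowest values were those of batch A. Of 11 other connexin, pannexin and junction scaffold genes tested, 2 were lower, none was higher and 9 did not pass, with a median log2 fold change of -0.09 (2 lower and -0.05 without T61340, and 1 lower and -0.01 with scaling by total alone). The lower genes were Panx1, a pannexin channel (-0.47, adjusted p = 2.09e-05), and Gjd2, the connexin of neuronal gap junctions (-0.28, adjusted p = 0.00888, both edgeR's quasi-likelihood test).

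**Figure D2:**
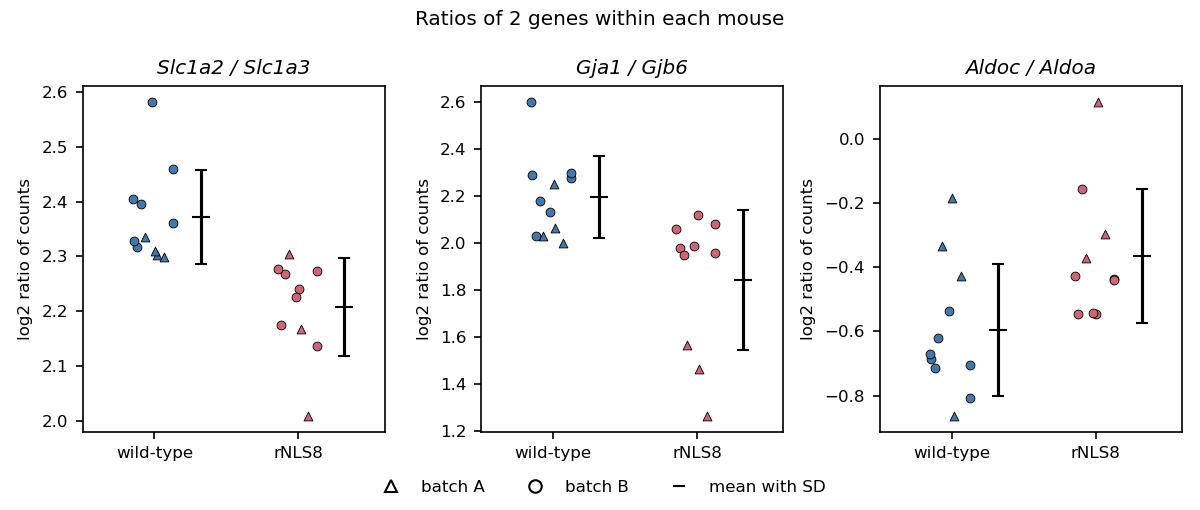
Log2 ratio of the counts of 2 genes within each mouse (vertical axes), with triangles for batch A, circles for batch B and bars for the mean with SD of 11 wild-type (blue) and 10 rNLS8 mice (red). Slc1a2 to Slc1a3 was below the wild-type range in 9 of 10 rNLS8 mice and Gja1 to Gjb6 in 7, and Aldoc to Aldoa was above it in 2.

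Since genes of each of these 2 families differed in how far they moved, the 250 bases before the start of Slc1a2, Slc1a3, Gja1 and Gjb6 are shown, as given by RefSeq for GRCm38.p6, 5′ to 3′ on the strand of the gene. The positions are chr2:102706188-102706437 (plus strand), chr15:8710808-8711057 (minus strand), chr10:56377050-56377299 (plus strand) and chr14:57133612-57133861 (minus strand). Capitals mark matches on either strand to 6 short motifs, namely the NFI half-site TTGGC, the SOX core ACAAT, the AP-1 site TGAGTCA, the promoter box CCAAT, the core promoter motif TATAAA and the Sp1 site GGGCGG. The motif TTGGC shares bases with CCAAT wherever the letters read GCCAAT on either strand. The Slc1a2 window lies before the start RefSeq gives, which is inside the span of the GENCODE gene, and 29 of its bases overlap an exon of another annotated transcript.
Slc1a2: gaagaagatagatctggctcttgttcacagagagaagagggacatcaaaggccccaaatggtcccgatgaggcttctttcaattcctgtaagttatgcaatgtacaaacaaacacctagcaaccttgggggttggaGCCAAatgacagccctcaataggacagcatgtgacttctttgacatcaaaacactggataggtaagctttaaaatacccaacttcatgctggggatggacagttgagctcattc
Slc1a3: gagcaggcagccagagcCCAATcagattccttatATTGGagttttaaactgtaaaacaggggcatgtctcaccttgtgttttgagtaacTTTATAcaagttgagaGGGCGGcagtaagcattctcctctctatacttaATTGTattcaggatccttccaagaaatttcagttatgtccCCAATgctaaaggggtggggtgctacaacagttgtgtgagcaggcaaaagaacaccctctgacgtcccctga
Gja1: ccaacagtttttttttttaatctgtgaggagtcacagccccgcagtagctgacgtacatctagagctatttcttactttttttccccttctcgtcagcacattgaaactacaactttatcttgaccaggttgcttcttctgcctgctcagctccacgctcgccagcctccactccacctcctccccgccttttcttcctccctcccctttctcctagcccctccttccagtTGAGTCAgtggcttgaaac
Gjb6: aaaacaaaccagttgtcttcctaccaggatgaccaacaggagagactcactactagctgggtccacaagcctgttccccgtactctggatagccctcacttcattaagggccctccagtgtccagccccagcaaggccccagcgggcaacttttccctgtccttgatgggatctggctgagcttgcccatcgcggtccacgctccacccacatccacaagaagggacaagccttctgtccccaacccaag

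The AP-1 letters stood in the Gja1 window, from 19 to 13 bases before the start, and 4.5% of the 32851 promoter windows of this length held them. The Slc1a2 window held 1 match, to TTGGC, which 41.5% of windows held. The Slc1a3 window held 3 matches to CCAAT (in 33.8% of windows), 1 to ACAAT (27.7%), 1 to TATAAA (12.4%) and 1 to GGGCGG (32.7%). The Gjb6 window held none of the 6. Promoter entries were found for 7 of the 9 genes, and such matches describe the letters only.

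Aldh1l1, a folate enzyme used as a general astrocyte marker, lies on the plus strand at chr6:90486427-90600203. Its normalized counts lay between 1416 and 1992 (median 1500) in the wild-type group and between 1099 and 1684 (median 1339) in the rNLS8 group. Values of batch A were the higher in both genotypes, and 7 of 10 rNLS8 mice, all of batch B, were below the wild-type range. The fitted log2 difference was -0.18 (SE of 0.044, adjusted p = 0.00209, edgeR's quasi-likelihood test) between means of 1571 ± 166 (SD, n = 11) and 1374 ± 167 (SD, n = 10). It was again -0.18 without T61340 (adjusted p = 0.00235, same test), and -0.10 (adjusted p = 0.0896) with scaling by total alone.

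Aldoc, the brain aldolase of astrocyte glycolysis, is on the plus strand at chr11:78322968-78327781. Normalized counts were 18379, 19288 and 24088 at the lowest, median and highest in wild-type mice and 16203, 19452 and 25680 in rNLS8 mice. The rNLS8 range enclosed the wild-type range. The log2 fold change was 0.00 with a 95% interval from -0.10 to 0.11 (adjusted p = 0.955, edgeR's quasi-likelihood test), and -0.03 without T61340, which was the highest rNLS8 mouse. The interval excludes a fall as large as that of Slc1a2.

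Aldoa, the aldolase found in most cells, fell from 30200.5 ± 2263 (SD, n = 11) to 25619.6 ± 3117 (SD, n = 10) normalized counts, a log2 fold change of -0.24 (adjusted p = 0.00284, edgeR's quasi-likelihood test). The log2 ratio of Aldoc to Aldoa averaged -0.60 ± 0.21 (SD, n = 11) in wild-type mice and -0.36 ± 0.21 (SD, n = 10) in rNLS8 mice, and 2 rNLS8 mice, neither of them T61340, exceeded the wild-type range. Of the 14 folate, glycine and aldolase relatives of Aldh1l1 and Aldoc, 5 were higher, 2 were lower and 7 did not pass, with a median log2 fold change of 0.12 (5 higher, 2 lower and 0.05 without T61340, and 7 higher, 1 lower and 0.20 with scaling by total alone). The mitochondrial folate enzymes Mthfd2 (1.43, adjusted p = 3.57e-12) and Shmt2 (1.16, adjusted p = 3.21e-12) rose in edgeR's quasi-likelihood test, as did Aldh1l2, the mitochondrial relative of Aldh1l1 (0.90, from 67.5 to 125 normalized counts). Gldc, the glycine decarboxylase of astrocytes, was the other lower gene beside Aldoa (-0.22, adjusted p = 0.00520, edgeR).

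Sox9, the transcription factor of astrocyte nuclei, lies on the plus strand at chr11:112782224-112787760. Wild-type mice had 475, 650 and 742 normalized counts at the lowest, median and highest, and rNLS8 mice 484, 588 and 672. No rNLS8 mouse was outside the wild-type range. The log2 fold change was -0.11 with a 95% interval from -0.24 to 0.01 (adjusted p = 0.140, edgeR's quasi-likelihood test) and -0.10 without T61340. With an interval that reaches -0.24, a fall of the size seen for Glul or Aldh1l1 is within the error for Sox9.

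Of 16 other astroglial transcription factors, 7 were lower, 1 was higher and 8 did not pass, with a median log2 fold change of -0.18 (4 lower, 1 higher and -0.10 with scaling by total alone, and 6 lower, 1 higher and -0.14 without T61340). Id4 (-0.38, adjusted p = 0.00147) and the Notch target Hes5 (-0.36, adjusted p = 0.00160) were the lowest and Nfib (0.20, adjusted p = 0.00769) was the higher gene in edgeR's quasi-likelihood test. Sox2, a SOX factor of neural progenitors and astrocytes, fell by 0.22 on the log2 scale (adjusted p = 0.00136, edgeR). Sox8 (-0.17, adjusted p = 0.0489, edgeR) had an adjusted p of 0.0953 without T61340.

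Per length, the order of the 9 genes in wild-type mice differed from that in counts. Glul led with 647 ± 42.8 (SD, n = 11) CPM (counts scaled to the effective library size) per kilobase of the longest transcript, followed by Aldoc (336 ± 29.2), Slc1a2 (293 ± 28.0), Slc1a3 (148 ± 10.3) and Gja1 (51.2 ± 4.34). Aqp4 (25.7 ± 3.01), Gjb6 (20.7 ± 2.66) and Aldh1l1 (17.6 ± 1.86) followed, and Sox9 was the lowest (7.13 ± 0.881). The ranges over mice of Aldoc and Slc1a2 overlapped, as did those of Aqp4, Gjb6 and Aldh1l1. Within the same wild-type mouse, Aldoc was above Slc1a2 in 9 of 11, Aqp4 was above Gjb6 and above Aldh1l1 in 11 of 11, and Gjb6 was above Aldh1l1 in 10 of 11. With the summed length of all exons in place of the longest transcript, Aqp4 at 20.8 stood above Gja1 at 19.4. In rNLS8 mice the order by the longest transcript differed only in that Gjb6 stood above Aqp4 (21.1 ± 3.18; SD, n = 10), though within the mouse Aqp4 was the higher in 5 of 10. Without T61340 Aqp4 (21.8 ± 2.47; SD, n = 9) stood above Gjb6 (21.4 ± 4.36), as in wild-type mice.

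Within batches, the 6 genes that fell together were lower in batch B alone (14 mice), where 39.1% of all genes passed in either direction, 19.8% lower and 19.3% higher. In batch A alone (7 mice) none of the 9 passed, where 11.8% of all genes did (6.99% higher and 4.83% lower). The log2 fold changes of the 6 genes were negative in both, for example -0.33 (adjusted p = 0.181) in batch A and -0.31 (adjusted p = 0.00158) in batch B for Slc1a2, and -0.38 (adjusted p = 0.0561) and -0.22 (adjusted p = 0.00449) for Gja1 in edgeR's quasi-likelihood test. Batch A held T61340, and without it (2 rNLS8 against 4 wild-type mice) the batch A values were -0.18 (adjusted p = 0.396) for Slc1a2 and -0.29 (adjusted p = 0.107) for Gja1 in the edgeR test, where none of the 9 genes and 10.5% of all genes passed. In batch A the genotypes did not overlap for 4 genes, lower for Slc1a2, Gja1 and Aqp4 and higher for Gjb6, beside 25.5% of all genes. In batch B they did not overlap for Glul and Aldh1l1, beside 16.4% of all genes.

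With all mice, Aqp4 and Gjb6 differed most between the batches in their fitted values, which for Aqp4 rested on T61340. Aqp4 had a log2 fold change of -0.45 in batch A and -0.17 in batch B, and Gjb6 0.28 (from 1055 ± 34.4, SD, n = 4, to 1258 ± 110, SD, n = 3) and 0.02. The interaction of genotype and batch gave an unadjusted p of 0.0467 for Aqp4 and 0.0675 for Gjb6, and an adjusted p of 0.875 for both in edgeR's quasi-likelihood test. Without T61340 the batch A value of Aqp4 was -0.25 and its unadjusted p for the interaction was 0.311, and those of Gjb6 were 0.28 and 0.0756, with an adjusted p of 0.942 for Aqp4 and 0.922 for Gjb6 (edgeR). None of the 9 genes and no gene in all (0.00%) passed for the interaction, where 1030 genes had an unadjusted p under 0.05 and DESeq2 called 1 gene. Batch itself, with genotype in the model, passed for 5 of the 9 genes, beside 23.3% of all genes. Gjb6 (-0.40), Aldh1l1 (-0.26), Aldoc (-0.22) and Glul (-0.12) were lower and Sox9 (0.19) was higher in batch B. Without T61340, Glul and Sox9 did not pass for batch and Aqp4 did (-0.27, adjusted p = 0.000968, edgeR).

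**Figure D3:**
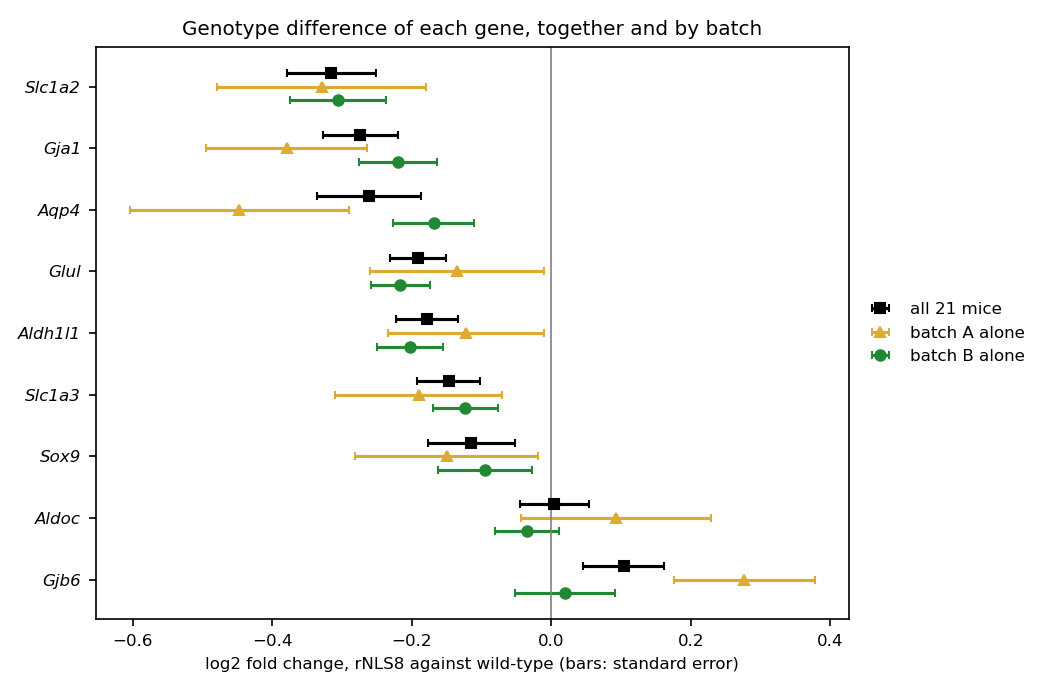
Log2 fold change of rNLS8 against wild-type mice (horizontal axis) for the 9 genes, fitted over all 21 mice (black squares), batch A alone (yellow triangles) and batch B alone (green circles), with bars for the standard error. From Slc1a2 at -0.32 to Slc1a3 at -0.15, 6 genes were below 0 over all mice and in each batch, and the bars of batch A were the wider.

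Scaling moved the calls. Counts were scaled by TMM, which assumes that most genes do not differ. When libraries were scaled by their total alone, the median log2 fold change of all genes was 0.08 and the calls were 5832 higher and 2752 lower, against 4190 and 3964 with TMM. Then Slc1a2 (-0.24, adjusted p = 0.00332), Gja1 (-0.20, adjusted p = 0.00500) and Glul (-0.11, adjusted p = 0.0168) still passed as lower in edgeR's quasi-likelihood test, whereas Slc1a3, Aqp4 and Aldh1l1 did not. DESeq2 with batch called the same 6 genes as TMM with edgeR.

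The 40 other homeostatic astrocyte genes on a wider list had a median log2 fold change of -0.14, with 16 lower, 2 higher and 22 not past the threshold. With libraries scaled by their total alone, 10 were lower and 5 higher, and the median was -0.06 beside 0.08 over all genes. Without T61340, 17 were lower, 2 were higher and the median was -0.14. Lgi1, a secreted synaptic protein gene, was the lowest (-0.55, adjusted p = 1.05e-08), followed by Dio2, the deiodinase that activates thyroid hormone (-0.37, adjusted p = 0.000232, both edgeR's quasi-likelihood test). The higher genes were Etnppl, a phospholyase (0.74, adjusted p = 0.000108), and Slc14a1, a urea transporter (0.38, adjusted p = 0.00257, both edgeR), which also has a second row in the table. Ndrg2 (0.02), S100b (-0.05) and Clu (0.11), all abundant in astrocytes, were among those not past the threshold, like Aldoc. Ndrg2 has a second row in the table as well. This list shares astrocyte expression with the 9 genes and no gene with them.

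More of the reactive astrocyte genes were higher than lower. Of 25 genes listed, 21 were tested, of which 10 were higher, 1 was lower and 10 did not pass, with a median log2 fold change of 0.22 (10 higher, 1 lower and 0.26 without T61340, and 11 higher, 1 lower and 0.30 with scaling by total alone). Gfap, the intermediate filament of reactive astrocytes, rose from 3323 to 6697 normalized counts, a log2 fold change of 1.03, and Serpina3n rose by 1.10 (adjusted p = 1.97e-08, edgeR's quasi-likelihood test). The study uses Serpina3n as a marker of disease-associated oligodendrocytes and reports it raised in rNLS8 mice. In whole tissue its rise cannot be assigned to astrocytes. The chemokine gene Cxcl10, which microglia also make, had 5.31 (adjusted p = 1.38e-12), from 3.56 to 142 normalized counts, and Tnc, a matrix protein gene, fell (-0.76, adjusted p = 2.63e-05, both edgeR).

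**Figure D4:**
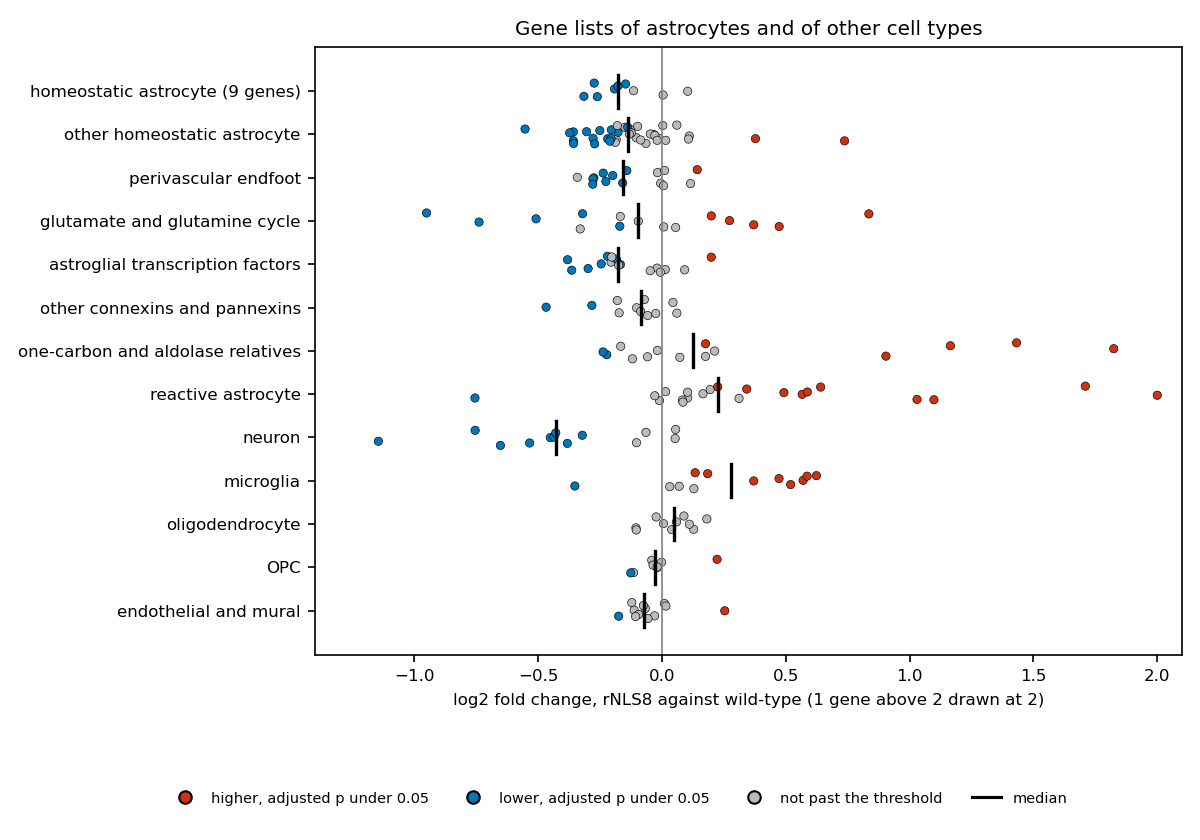
Log2 fold change of rNLS8 against wild-type mice (horizontal axis) for each gene of 13 lists (rows), in red for higher and blue for lower at an adjusted p under 0.05, in grey for the rest, with a bar at the median. The homeostatic lists have medians of -0.18 and -0.14, the reactive list 0.22 and the neuron list -0.43.

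Markers of other cell types were measured in the same libraries. Of 13 neuron markers 9 were lower and none was higher, with a median log2 fold change of -0.43, led by the neurofilament gene Nefl (-1.15) and the synaptic gene Snap25 (-0.75). Without T61340 these counts were the same, with a median of -0.43, and with scaling by total alone 8 were lower, none was higher and the median was -0.35. Their summed level was 11772 to 14591 CPM in wild-type and 8950 to 10538 in rNLS8 mice. Of 12 microglia markers 8 were higher and 1 was lower, with a median of 0.28 (8, 1 and 0.27 without T61340, and 10, 1 and 0.36 with scaling by total alone) and summed levels of 464 to 542 and 505 to 795 CPM. None of 10 oligodendrocyte markers passed (median 0.05), though 1 was higher (median 0.13) with scaling by total alone. OPC markers (1 higher and 1 lower of 8) and endothelial and mural markers (1 higher and 1 lower of 12) had medians of -0.03 and -0.07, which were 0.05 and 0.01 with scaling by total alone, where 1 of each list was higher and none was lower. No ependymal or choroid plexus marker passed (0 of 8), with summed levels of 28.5 to 2224 CPM in wild-type and 34.5 to 1138 in rNLS8 mice. Without T61340 the counts of these 4 lists differed only in the endothelial and mural list (1 higher and 2 lower). None of these lists had a defining marker at 0 in all mice, and their part in the lower astrocyte genes was not tested.

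Transcript length moved with the difference to a small extent, and less so without T61340, the only library left out for this. The 2172 genes with the longest transcripts, over 6000 bases, had a median log2 fold change of -0.04, and -0.01 without T61340. Of genes of that length 27.3% were lower and 16.5% higher, and 25.4% and 21.8% without T61340. Slc1a2, with 11595 bases, is the only 1 of the 9 genes of that length, and its value without T61340 is given above. The part of length in the result for Slc1a2 was not tested further.

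Levels also varied among mice of 1 genotype and batch. Residual log2 levels, with the mean of each genotype and batch removed, had a Pearson r over 21 mice of 0.90 between Slc1a2 and Slc1a3, 0.81 between Slc1a3 and Gja1 and 0.71 between Slc1a2 and Gja1. Without T61340 these were 0.87, 0.77 and 0.64. Glul with Aldoc had 0.75 (0.73 without T61340), and Gjb6 with Aldh1l1 had 0.64 with or without it. Other pairs moved more with that library, for example Aqp4 with Slc1a2 (from 0.64 to 0.44 without it) and with Aldoc (from -0.26 to 0.03), and Slc1a3 with Aldoc (from 0.04 to 0.31) and with Glul (from 0.38 to 0.62). The points share library, tissue piece and scaling, so these values describe the libraries and carry no test.

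**Figure D5:**
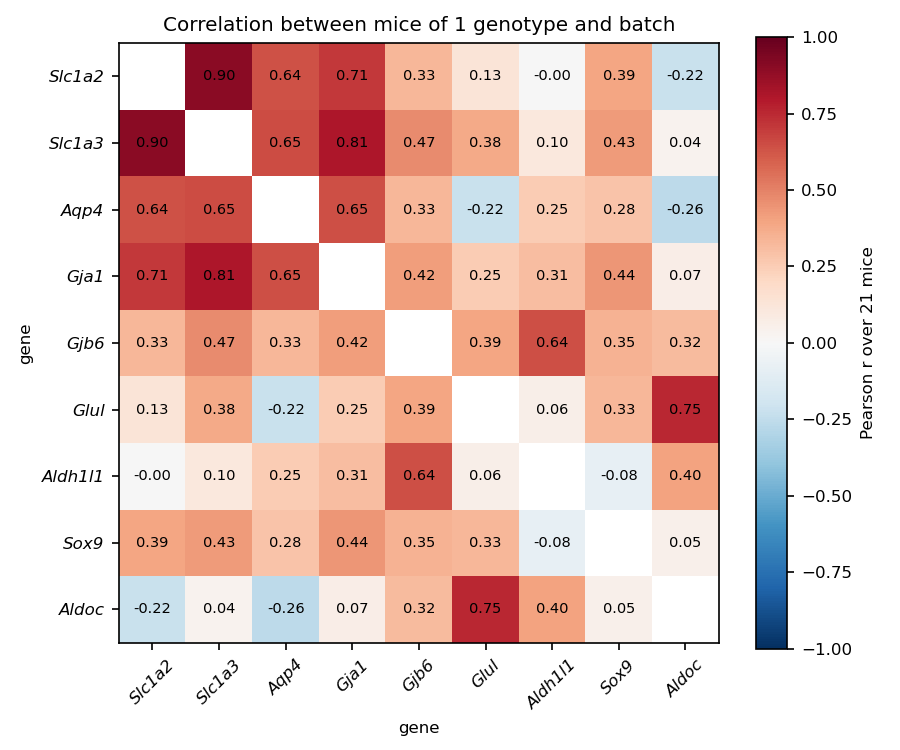
Pearson r over 21 mice between residual log2 levels of each pair of the 9 genes (rows and columns), after removal of the mean of each genotype and batch, from blue (-1) to red (1). Slc1a2 with Slc1a3 (0.90; 0.87 without T61340) and Slc1a3 with Gja1 (0.81; 0.77 without it) had the largest values.

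Against the mean of the other 8, Slc1a3 (0.83) and Gja1 (0.78) were the closest, also without T61340 (0.81 and 0.75). Aldoc had 0.12, and 0.37 without T61340, where Aldh1l1 was the lowest (0.34). Of 14575 genes with a mean of at least 50 counts, the 10 whose residuals were most like the mean of the 9 over the 21 mice were Mlc1 (r of 0.89), Arhgef26 (0.84), Tmem100 (0.83), Dock2 (0.81), Axl (0.79), Lrp4, Cpe, Itpr2, Hopx and Gpc5 (0.78 each). Without T61340 the r of these 10 ran from 0.74 (Itpr2) to 0.88 (Mlc1). Mlc1 stood on the endfoot list and Gpc5 on the wider astrocyte list. In their difference between genotypes these 10 did not follow 1 direction, with Cpe lower (-0.21, adjusted p = 4.76e-05) and Dock2 higher (0.50, adjusted p = 0.000282, both edgeR's quasi-likelihood test).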

How the data were processed

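Neocortex RNA of 21 mice was extracted with the RNeasy Plus Mini Kit, sequenced at BGI as paired-end mRNA libraries and, per the methods, aligned to GRCm38 and compared with DESeq2. The authors' processing notes name mm10, HISAT, HISAT2, Bowtie, Bowtie2 and RSEM, with no role. The table the authors deposited holds whole-number counts without normalization, by gene symbol (some with further rows under a copy suffix) and with 1 column per mouse. As RSEM is named, they may be rounded estimates, and they were treated as counts. No column was left unused. Reads carried no molecular identifiers.

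R 4.3.3 and edgeR 4.0.16 were used. Rows passed filterByExpr with a minimum count of 10 and a minimum total of 15, and counts were scaled by TMM and tested with the two-sided quasi-likelihood test with genotype and batch in the model. P-values were adjusted by Benjamini-Hochberg over all 18248 genes tested, at a threshold of 0.05, and measure the spread between mice. For normalized counts, each count was divided by its library's effective size and brought to the mean effective size. Residuals used log2 CPM with a prior count of 2, and log2 ratios used counts plus 2. Standard errors were derived from the fold change and the F statistic. DESeq2 1.42.0, other scalings and filters, each batch alone, Xist as covariate, rows with a copy suffix left out (2536 rows, 4.11% of counts) and each mouse left out were alternatives. The procedures were tested on simulated data.

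The 9 genes and all lists were chosen with earlier results of these data known. From each list the text names the 2 genes with the largest change in each direction that passed the threshold and averaged at least 50 counts, and the 10 genes most like the 9. Some of these are not reported here. Slc1a1, Got2, Kcnj10, Mlc1, Dag1, Dtna, Sox2, Sox8, Aldh1l2, Ndrg2, S100b, Clu and Gfap were named after their values were seen. Positions of genes are from GENCODE M21, and promoter windows from RefSeq.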

Additional observations from a re-analysis of the deposited data

How the results depend on the processing

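The same 6 of the 9 genes were lower under every alternative run except batch A alone and scaling by library size only. Batch A alone gave 0 of 9 (and 2195 genes in all, against 8154). Scaling by library size only gave 4 of 9 (Slc1a2, Gja1 and Glul lower, Gjb6 higher), and 8584 of 18248 genes in all, which is a larger share. Leaving out 1 mouse at a time gave 6 to 7, with Sox9 passing (-0.14, adjusted p = 0.0483, edgeR's quasi-likelihood test) without wild-type replicate 2, and 7805 to 8363 genes in all. For Slc1a2 that range of log2 fold changes was -0.34 to -0.27, for Slc1a3 -0.17 to -0.12, for Aqp4 -0.29 to -0.19, for Gja1 -0.30 to -0.24, for Glul -0.21 to -0.18 and for Aldh1l1 -0.19 to -0.15. Aldoc, which did not pass in any, changed sign: -0.0103 in DESeq2 without batch, -0.0068 in edgeR without batch, -0.0355 in batch B alone, -0.0280 without T61340, -0.0016 without T60303, -0.0487 without both, and -0.0280 to 0.0271 when each mouse was left out. None of the 9 genes passed for the interaction under the alternatives run for it. The cause of these shifts was not tested.

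The 7 mice of batch A limit what that batch can show alone. List counts under each scaling and the values of batch A, the interaction, batch and level per length without T61340 were added after the data were seen. No paired analysis was possible because the replicate numbers were given in accession order and tie no mice of the 2 genotypes together.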
